A study of Mus with 6 samples.

Results

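Genes of bone marrow homing and adhesion were examined in leukaemic stem cell-enriched cells of mice with chronic myeloid leukaemia. The 8 genes were Cxcr4, the integrin subunit genes Itga4, Itga5, Itga6, Itgb1 and Itgb2, Selplg and Cd44. Every probe that the platform annotation assigns to one of them was taken, which gave 26 of the 45281 probes on the array. RNA was measured on 6 one-colour Illumina bead arrays. Of these, 3 held cells of leukaemic wild-type (WT) mice and 3 held cells of leukaemic mice deficient in Klf4, all labelled C57BL/6. Both groups carried the p210 form of BCR-ABL. Their GFP-positive, lineage-negative cells with Sca-1 and c-Kit (LSK cells) were sorted from bone marrow 14 days after transplantation. The sources used here do not give the Klf4 allele, the way it was deleted or the recipient mice. The labels also do not state whether replicates were separate mice, and p-values therefore cover only the spread among these arrays, and that spread may be technical.

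Stem and progenitor cells leave the blood for the marrow in steps. P-selectin glycoprotein ligand 1, the product of Selplg, and CD44 let cells roll on endothelial selectins, the chemokine CXCL12 signals through CXCR4 and switches integrins to their binding form, and integrins then hold the cell on vessel walls and matrix. Integrins are dimers of an alpha and a beta chain, and CD44, a receptor of hyaluronan, is known as a requirement for the homing of BCR-ABL leukaemia-initiating cells. The product of Klf4 is a transcription factor with zinc fingers, and the comparison asks which transcripts differ when it is missing from these cells.

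The values are background-subtracted intensities, and 32 was used as the level below which a value was treated as not measured. On each array 7082 to 7214 probes, or 15.6% to 15.9%, exceeded 32. WT replicate 3 stood apart. Across the tested probes, which are not independent replicates, it correlated with the remaining arrays at r = 0.29 to 0.30, while those correlated with each other at 0.66 to 0.72. It held the highest value of 29.2% of the tested probes, where the other arrays held 13.2% to 15.7% each. Klf4 itself was near background, with 1 value above 32 over its 3 probes, 51.9 in WT replicate 2, so the arrays gave no check of the knockout labels. Of 10 named stem and early progenitor markers, 9 exceeded 32 on at least 1 array and 0 did so on all 6. Kit, a gene of the sort, exceeded it on 4 arrays, and Ly6a, which encodes Sca-1, had no named probe and was not analysed here.

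No homing gene passed the test for a difference between the groups. Of the 26 probes, 16 exceeded 32 on at least 1 array and could be tested, and limma called 0 of them (adjusted p under 0.05), where 0% of the 18270 tested probes were called. At an unadjusted p under 0.05 there were again 0 member probes, against 2.03% of all tested probes, and 0 were called with trend and robust eBayes or with array weights. The groups did not overlap for 0 of the 16, against 3.09% of all tested probes. With values floored at 32, only a probe above 32 on all 3 arrays of a group could separate. That held for 2 of the 26 member probes, so this count says little about the others. The difference was above 0 for 8 probes and below 0 for 8, and 45.8% of all tested probes were higher in Klf4-deficient arrays. Without WT replicate 3, 8 of 14 member probes were above 0 and 54.9% of all tested probes, and limma again called 0. The remaining 10 member probes read from -15.9 to 30.9 and stayed below 32 on every array.

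**Figure D1:**
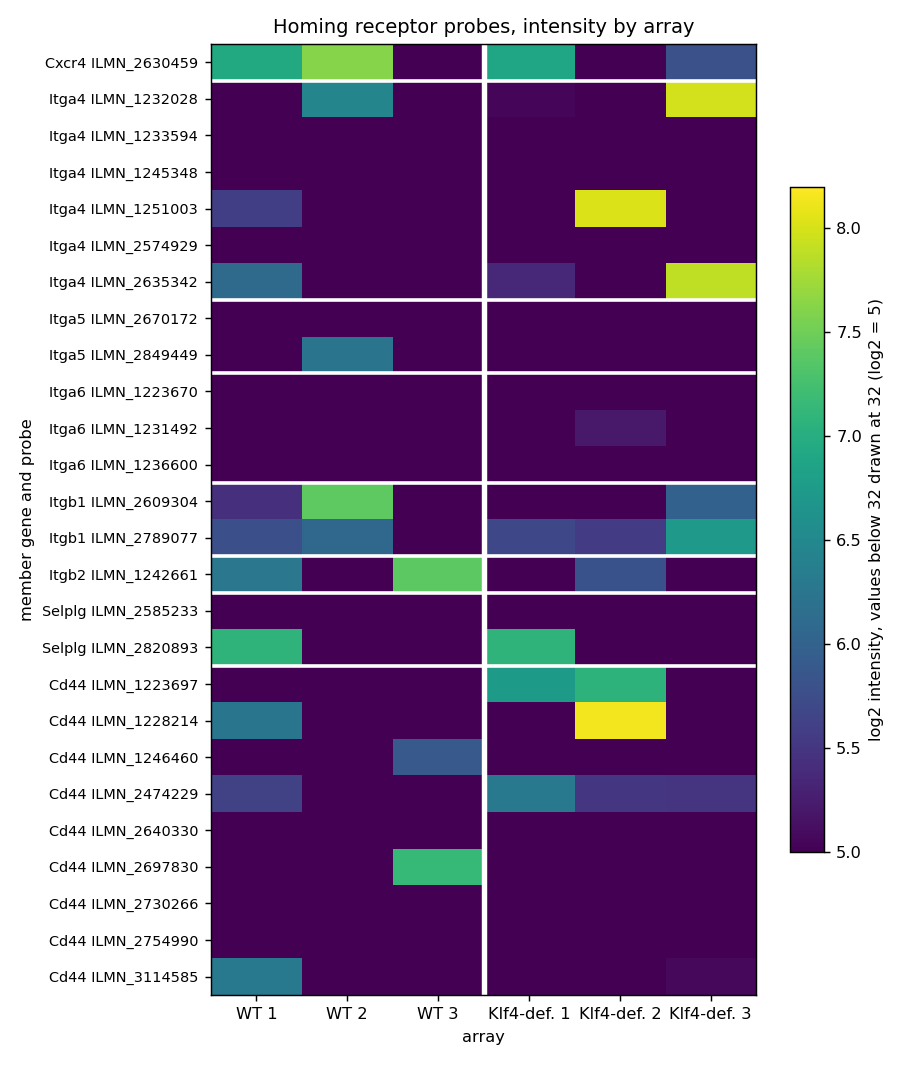
Log2 intensity of all 26 probes of the 8 genes (vertical axis, probes grouped by gene) on the 3 WT and 3 Klf4-deficient arrays (horizontal axis), with values below 32 drawn at 32. Most cells are at 32, 10 probes are there on every array, and 0 probes are above it on all 6.

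Detection was patchy. Of the 16 tested probes, 4 exceeded 32 on 1 array, 5 on 2 arrays, 4 on 3 arrays, 2 on 4 arrays and 1 on 5 arrays. All 3 arrays of a group were above 32 for 2 of the 26 probes, a Cd44 and an Itgb1 probe, both in Klf4-deficient cells. Over all 45281 probes, 40.3% exceeded 32 on at least 1 array and 8.39% on all 3 arrays of a group. Per array, WT replicate 1 had 10 member probes above 32, WT replicate 2 had 5, WT replicate 3 had 3, and each Klf4-deficient array had 7. At the level of genes, 6, 4 and 2 of the 8 had a probe above 32 on WT replicates 1, 2 and 3, against 5, 5 and 4 on Klf4-deficient replicates 1, 2 and 3. WT replicate 3 was thus the array with the fewest homing genes measured.

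Cxcr4, the receptor of the marrow chemokine CXCL12, was measured by probe ILMN_2630459. It read 123.1, 197.1 and -0.3 in WT replicates 1, 2 and 3 and 117.8, 7.5 and 55.4 in Klf4-deficient replicates 1, 2 and 3. Each group thus held arrays above 100 and arrays near 0, and the groups overlapped. The difference, Klf4-deficient minus WT, was -0.63 ± 0.85 (log2, SE, n = 3 per group, 95% interval -2.79 to 1.53, adjusted p = 0.74 in limma). Without WT replicate 3 the 2 groups no longer overlapped and the difference was -1.39 ± 0.65, still with a limma adjusted p of 0.84. In that comparison 1 of 14 member probes had groups that did not overlap, against 8.47% of all tested probes. Leaving out Klf4-deficient replicate 1 gave -1.13, replicate 2 of that group -0.19 and WT replicate 2 -0.081. The interval holds several-fold differences in both directions, so a difference in Cxcr4 of that size was not detectable with these arrays.

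Genes whose values followed those of Cxcr4 over the 6 arrays were sought among 14333 named probes, as a description of these arrays. The 3 most alike were Dnajb1, which encodes a cochaperone of HSP70 (Pearson r = 0.99, Spearman 0.93), Birc5, which encodes survivin (r = 0.98), and Rela, which encodes a subunit of NF-κB (r = 0.98). Dnajb1 read 341, 759.7 and 49.5 in WT against 367.4, 60 and 79 in Klf4-deficient arrays. In these genes WT replicate 2 was highest and WT replicate 3 lowest, as for Cxcr4. They were picked for likeness from all candidates, so the correlations carry no test.

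The alpha chains came next. Itga4 encodes integrin α4, which pairs with β1 to bind VCAM1 and fibronectin and is known for holding progenitors in the marrow. It had 6 probes, of which 3 could be tested. Probe ILMN_2635342 read 68.8, 9.4 and -2.5 in WT against 41.2, 8.3 and 236.9 in Klf4-deficient replicates 1, 2 and 3. ILMN_1232028 read 21.1, 88.1 and 5.8 in WT against 33.2, 19 and 253.3 in Klf4-deficient arrays. ILMN_1251003 read 48.3, 17 and 4.9 in WT against 10.7, 262.1 and 0.3 in Klf4-deficient arrays. The first pair of probes peaked in Klf4-deficient replicate 3, while the third peaked in Klf4-deficient replicate 2 and read 0.3 where the others were highest. Their differences were 0.72 ± 0.87, 0.53 ± 0.97 and 0.81 ± 0.91 (log2, SE, n = 3 per group), with limma adjusted p of 0.72, 0.80 and 0.71.

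Each Itga4 difference rested on 1 Klf4-deficient array. Without replicate 3 of that group, ILMN_2635342 turned to -0.19 and ILMN_1232028 to -0.46, and without replicate 2 ILMN_1251003 turned to -0.20. As the mean of the 3 probes, Itga4 differed by 0.69 (log2), with an exact two-sided permutation p of 0.30, where 0.10 is the smallest p that 3 against 3 samples can give. Leaving out Klf4-deficient replicate 3 lowered that mean to 0.22, and leaving out replicate 1 of that group raised it to 1.13. The 95% interval from limma on such gene means was -0.59 to 1.96.

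Itga5 and Itga6 were nearly silent on these arrays. Itga5 encodes integrin α5, the partner of β1 in the classical fibronectin receptor. Its probe ILMN_2849449 read 3.8, 75.4 and 9.5 in WT against -1.4, 5.1 and 6.8 in Klf4-deficient arrays, so WT replicate 2 alone was above 32. No Klf4-deficient array and 1 of 3 WT arrays exceeded the floor. With values floored at 32, Klf4-deficient arrays were 1.33-fold lower (-0.41 ± 0.39 log2, SE, adjusted p = 0.71 in limma), and without WT replicate 2 no array exceeded 32. It was -0.75 with a floor of 16 and -0.079 with a floor of 64. Itga6 encodes integrin α6, a laminin receptor chain. Its probe ILMN_1231492 read 11.3, 10 and -10.6 in WT against 22.5, 37.1 and -3.8 in Klf4-deficient arrays, with 1 value above 32 in Klf4-deficient replicate 2. That gave 0.071 ± 0.16 (log2, SE, adjusted p = 0.83 in limma), and without that array none exceeded 32. Its size depended on the floor, with 0.57 at a floor of 16 and 0.35 with an offset of 32. The other 2 Itga6 probes and the second Itga5 probe did not exceed 32 on any array.

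Itgb1 encodes integrin β1, the chain shared by α4, α5 and α6. Probe ILMN_2789077 was above 32 on 5 arrays, more than any other member probe. It read 55.2, 67.8 and -6.1 in WT against 51.6, 47.3 and 105.8 in Klf4-deficient replicates 1, 2 and 3, so WT replicate 3 alone lacked signal. ILMN_2609304 read 43.3, 169 and -10.5 in WT against 18.2, 12.2 and 63.9 in Klf4-deficient arrays. Both probes were below 0 in WT replicate 3, but they peaked on different arrays.

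The 2 Itgb1 probes differed in sign. The difference was 0.37 ± 0.45 on ILMN_2789077 and -0.61 ± 0.72 on ILMN_2609304 (log2, SE, n = 3 per group), each with a limma adjusted p of 0.72. Without WT replicate 3 they were 0.058 ± 0.45 and -1.09 ± 0.73, and without WT replicate 2 the second turned to 0.11. The mean of both was -0.12 (exact two-sided permutation p = 0.80), with a limma interval of -1.53 to 1.28. This mean turned to 0.36 without WT replicate 2, 0.037 when Klf4-deficient replicate 1 was left out and 0.069 when replicate 2 of that group was.

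The probe most like ILMN_2789077 of Itgb1 over the 6 arrays, out of 14332, belonged to Stx16, a syntaxin of Golgi transport (Pearson r = 0.98, Spearman 0.94). Vwa5a (r = 0.97) and Kmt5c, a histone H4 methyltransferase gene (r = 0.96), followed. Stx16 read 104.6, 121.1 and 4.3 in WT against 71.9, 78.9 and 252.2 in Klf4-deficient arrays, again lowest in WT replicate 3 and highest in Klf4-deficient replicate 3.

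Read as dimers, a probe of Itga4 and a probe of Itgb1 were both above 32 on 5 arrays, all but WT replicate 3. Itga5 and Itgb1 were both above 32 on 1 array, WT replicate 2, and Itga6 and Itgb1 on 1, Klf4-deficient replicate 2. Cxcr4 was above 32 together with both Itga4 and Itgb1 on 4 arrays, 2 of each group. By this rule of any probe above 32, the α4β1 pair was measured in both groups, and α5 and α6 on single arrays. Itga4 had 6 probes, Itga5 had 2 and Itga6 had 3, so the chains cannot be ranked by it. Only ILMN_1232028 of Itga4 exceeded 32 in WT replicate 2, and only ILMN_1251003 in Klf4-deficient replicate 2. On each array 15.6% to 15.9% of all probes exceeded 32.

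Itgb2 encodes integrin β2, the chain of the leukocyte integrins that bind ICAM1. Its probe ILMN_1242661 read 77.3, 22.1 and 167.9 in WT against 15.9, 56 and 11.7 in Klf4-deficient arrays. WT replicate 3, low for Cxcr4, Itga4 and Itgb1, was here the highest array. A difference of -0.95 ± 0.67 was found (log2, SE, n = 3 per group, 95% interval -2.64 to 0.74, adjusted p = 0.71 in limma). It became -0.37 ± 0.53 without WT replicate 3 and -1.56 without WT replicate 2. With a floor of 16 it was -1.44 and with a floor of 64 it was -0.55. Itgam, which encodes an alpha partner of β2, read 59.7 in WT replicate 3 and at most 11.6 elsewhere, and Itgal, another partner, stayed below 32 on every array.

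Markers listed for neutrophils and monocytes, cells that carry β2 integrins, were mixed in WT replicate 3. The summed intensity of 13 named neutrophil markers was 8008 in that array, 2702 and 3919 in the other WT arrays and 2228 to 3233 in Klf4-deficient arrays, and 7153.2 of the 8008 came from 1 probe of Mpo. On each gene's probe with the highest mean, 6 of the 13 markers were highest in WT replicate 3. Among them were Mpo, Ltf and Mmp8 but also Cebpe, at 27.4, and Retnlg, at -2.9. A further 3 were lowest there. Those 3 were Ctsg, at 8.8 against 165.4 to 573.1 elsewhere, S100a9, at 2.9 against 35.2 to 986.3, and S100a8, at -2.1. Another Mpo probe also read low there, at 13.6, and another Cebpe probe peaked in Klf4-deficient replicate 1, at 49.1. The sum of 7 named monocyte and macrophage markers was 391 in WT replicate 3, 59.4 and 98.5 in the other WT arrays and 32.9 to 59.5 in Klf4-deficient arrays, with 2 of the 7, Csf1r and Cd14, highest there. Of these markers, 11 of the 13 neutrophil genes and 3 of the 7 monocyte genes exceeded 32 on any array, and Ngp, Retnlg, Ccr2, Fcgr1, C1qa and C1qb did not. Their part in the Itgb2 values was not tested.

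Selplg had 2 probes. ILMN_2820893 read 135.7, -6.7 and -6.6 in WT against 134.9, -1.1 and -5.1 in Klf4-deficient replicates 1, 2 and 3. Replicate 1 of each group was thus bright and all other arrays were below 0, which left a difference of -0.0028 ± 0.87 (log2, SE, n = 3 per group, adjusted p = 0.998 in limma). This value carried no stable sign. It was 0.69 when WT replicate 1 was left out, -0.69 when Klf4-deficient replicate 1 was, -0.35 without WT replicate 3 and 0.34 without Klf4-deficient replicate 2 or 3. The second probe, ILMN_2585233, read 10.6, 28.7 and 30.9 in WT against -1.5, -1.8 and -0.9 in Klf4-deficient arrays. Each WT value there was above each Klf4-deficient value, but all were below 32 and the probe was not tested.

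Cd44 had 9 probes, of which 6 could be tested. ILMN_2474229 was the probe above 32 on most arrays. It read 49.4, 1.5 and 7.3 in WT against 78.6, 45.5 and 44.6 in Klf4-deficient replicates 1, 2 and 3. All Klf4-deficient arrays and 1 WT array were above 32, and the groups overlapped through WT replicate 1. The difference was 0.55 ± 0.33 (log2, SE, n = 3 per group, 95% interval -0.29 to 1.39, adjusted p = 0.71 in limma). Without WT replicate 1 the groups did not overlap and the difference was 0.76, while without Klf4-deficient replicate 1 it was 0.28. The share of all tested probes without overlap was not taken for that leave-out. Over all 6 arrays the difference was 1.22 with a floor of 16 and 0.099 with a floor of 64.

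ILMN_1223697 had the smallest p of the member probes. It read 16.6, 17.6 and 30.2 in WT against 107.2, 134.1 and 17.7 in Klf4-deficient arrays, so 2 of 3 Klf4-deficient arrays stood above all WT arrays and the third did not. With floored values, Klf4-deficient arrays were 2.41-fold higher (1.27 ± 0.58 log2, SE, n = 3 per group, limma unadjusted p = 0.078, adjusted p = 0.71). All WT arrays and Klf4-deficient replicate 3 were at the floor, so this fold is not a lower bound. Leaving out Klf4-deficient replicate 2 gave 0.87 and leaving out replicate 3 gave 1.91, where the groups did not overlap. The share of all tested probes without overlap was not taken there either. With a floor of 64 the difference was 0.60.

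The other Cd44 probes disagreed with each other. ILMN_1228214 read 75.5, 4 and -4.6 in WT against -15.6, 283.8 and 0.7 in Klf4-deficient arrays (0.64 ± 1.00 log2, SE), and turned to -0.41 without Klf4-deficient replicate 2. ILMN_3114585 read 78.6, 0.2 and 6.1 in WT against -6.4, 5.9 and 33.5 in Klf4-deficient arrays (-0.41 ± 0.41), and turned to 0.022 without WT replicate 1. Each of these probes thus rested on 1 bright array.

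ILMN_2697830 and ILMN_1246460 of Cd44 were above 32 in WT replicate 3 alone, at 141.2 and 59.6, with all other arrays at most 16.7. Their differences of -0.71 ± 0.64 and -0.30 ± 0.30 (log2, SE) were gone without that array, where neither probe exceeded 32. As the mean of the 6 probes, Cd44 differed by 0.17 (log2, exact two-sided permutation p = 0.50), with a limma interval of -0.59 to 0.94. It was 0.38 without WT replicate 3, over the probes still above 32 on an array, and turned to -0.046 without Klf4-deficient replicate 2.

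Over the 6 arrays and 14328 named probes, ILMN_2474229 of Cd44 was most like probes of H13, a signal peptide peptidase (Pearson r = 0.99, Spearman 0.94), Birc5 (r = 0.99) and Sbno1 (r = 0.99). H13 read 60, 1.9 and -12.3 in WT against 118.1, 60.6 and 56.1 in Klf4-deficient arrays. It shared with Cd44 the high WT replicate 1 and the low WT replicates 2 and 3. Birc5 was also among the matches of Cxcr4, through another of its probes.

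**Figure D2:**
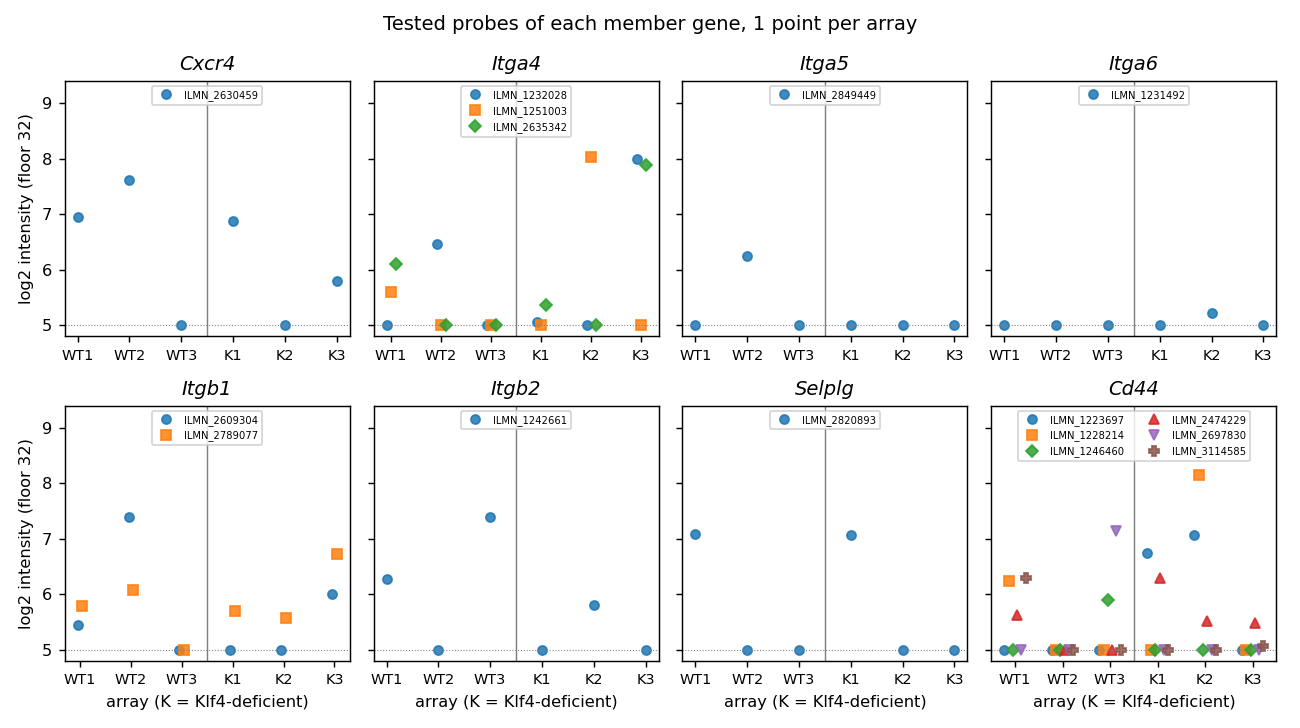
Log2 intensity (vertical axis, values below 32 drawn at 32) of the tested probes of each gene, 1 symbol per probe and array, with WT arrays left and Klf4-deficient arrays (K) right of the line. For Itga4, Itgb1 and Cd44 the probes of 1 gene peak on different arrays, and for Selplg replicate 1 of each group is the only bright array.

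Probes of 1 gene often gave opposite signs. Of 19 pairs of tested probes of the same member, 9 had the same sign of difference, all 3 pairs of Itga4, 0 of 1 of Itgb1 and 6 of 15 of Cd44. Over all named genes, 3605 of 6392 such pairs did, or 56.4%. The same array was the highest for both probes in 3 of the 19 member pairs, and in 28.2% of the pairs of all named genes. Disagreement between probes was thus seen across the arrays and not called particular to these genes.

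**Figure D3:**
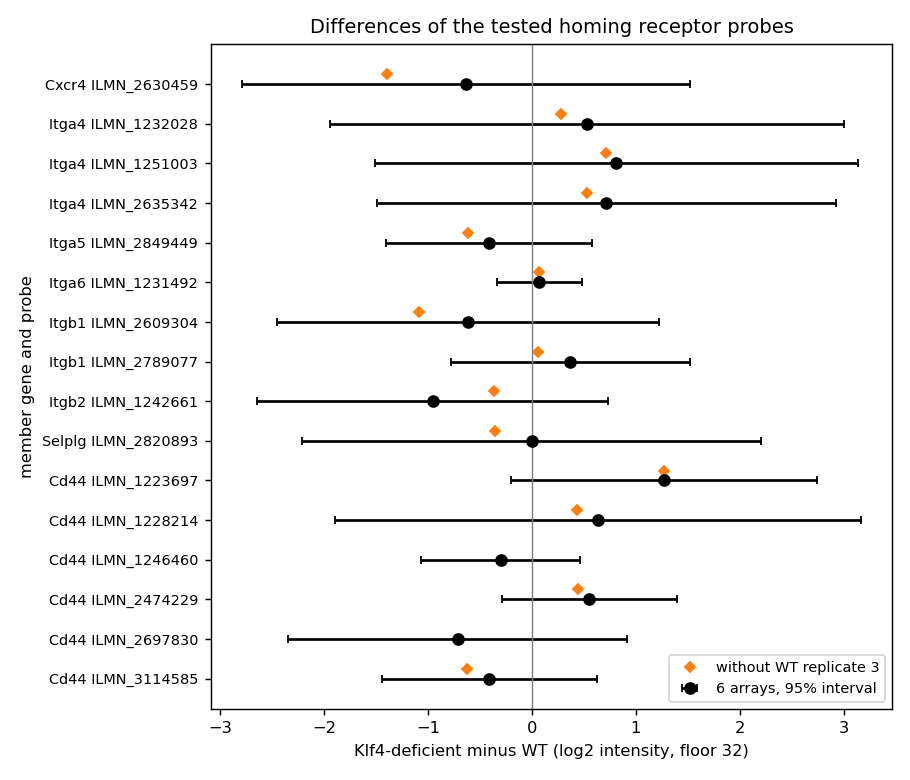
Difference, Klf4-deficient minus WT (log2 intensity, horizontal axis), of the 16 tested probes with its 95% interval from limma (n = 3 per group), and the value without WT replicate 3 where the probe could still be tested. All 16 intervals cross 0, and Cxcr4 and Itgb2 move most when WT replicate 3 is left out.

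At the level of genes, the differences were -0.63 for Cxcr4, 0.69 for Itga4, -0.41 for Itga5, 0.071 for Itga6, -0.12 for Itgb1, -0.95 for Itgb2, -0.0028 for Selplg and 0.17 for Cd44 (log2, mean of the tested probes, n = 3 per group). Exact two-sided permutation p-values ran from 0.30 to 1, and each was 1 after Benjamini-Hochberg adjustment over the 8 genes. The design cannot go below 0.10. Itga5 and Itga6 were each above 32 on 1 array. For them every assignment gives the same absolute difference, so the permutation could not test them.

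The wider homing machinery was described from 6 lists of 114 genes, of which 74 had a tested probe. Of their 109 tested probes, 45 had a difference above 0 and 64 below 0, and limma called 0. The median difference was -0.069 (log2), against -0.055 over all tested probes. At an unadjusted p under 0.05 there were 3 probes, or 2.75%, against the 2.03% of all tested probes. The groups did not overlap for 4, or 3.67%, against 3.09%. These shares lie near the background.

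Among genes of integrin activation and adhesion signalling, 15 tested probes were higher and 21 lower, with a median of -0.049. Leaving out Klf4-deficient replicate 3 gave a median of -0.27, and leaving out WT replicate 2 gave 0.058. Cd81 encodes a tetraspanin that sits beside integrins in the membrane. It read 71.8, 113.4 and -4.6 in WT against 388.1, 576.5 and 300.3 in Klf4-deficient arrays, and every Klf4-deficient array was above every WT array. The difference was 2.67 ± 0.55 (log2, SE, n = 3 per group, limma unadjusted p = 0.0040, adjusted p = 0.71), or 6.37-fold, and 2.17 without WT replicate 3. It did not pass the test over all probes.

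Vav1 encodes an exchange factor that activates Rac below integrins and chemokine receptors. It read 211.9, 321.9 and 131.1 in WT against 43.6, 33.8 and 87.8 in Klf4-deficient arrays, all 6 above 32, and every Klf4-deficient array was below every WT array. The difference was -2.04 ± 0.51 (log2, SE, n = 3 per group, limma unadjusted p = 0.0094, adjusted p = 0.71), a 4.10-fold lower level, and -2.37 without WT replicate 3. It did not pass the test either.

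Of the chemokine and lipid receptor list, which includes their regulators, 9 tested probes were higher and 4 lower, with a median of 0.24. Without WT replicate 3 there were 10 higher and 1 lower, with a median of 0.37, where 54.9% of all tested probes were higher. Over all leave-outs of 1 array the median lay between 0.24 and 0.37. Among the fewer probes above 32 on at least 3 arrays it was 1.34, the value of Rgs1 probe ILMN_2625377. S1pr2, a sphingosine 1-phosphate receptor, read 226.8, 33.9 and -9.6 in WT against 287.3, 137.9 and 528.9 in Klf4-deficient arrays on ILMN_1236022 (2.14 ± 0.96 log2, SE, adjusted p = 0.71 in limma). Rgs1, which dampens chemokine receptor signalling, read 39.7, 78 and -8.2 in WT against 75.8, 114.6 and 184.4 in Klf4-deficient arrays on ILMN_2625377 (1.34 ± 0.49 log2, SE, adjusted p = 0.71 in limma). Another Rgs1 probe went the other way, at -0.60 ± 0.84, and was 0.11 without WT replicate 3. In both genes WT replicate 3 was the lowest array on the probe with the smaller p.

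Niche ligands and counter-receptors, made mainly by stroma and endothelium, had 2 tested probes higher and 10 lower, with a median of -0.29. Cxcl12 itself read 10.7, 35 and 216 in WT against 15.9, 10.8 and 14.2 in Klf4-deficient arrays on ILMN_2746295 (-0.96 ± 0.80 log2, SE, adjusted p = 0.71 in limma). Another Cxcl12 probe, ILMN_3078973, was above 32 in WT replicate 3 alone, at 266.5. Tnc, a matrix glycoprotein, read 247.3 in that array on ILMN_2454497 and at most 32.7 elsewhere, and Vcam1, the ligand of α4β1, read 84.5 there on ILMN_1241993 and at most 26.3 elsewhere. Without WT replicate 3 the list had 7 tested probes, 4 higher and 3 lower, with a median of 0.010, and without WT replicate 1 the median was -0.44. The other 3 Vcam1 probes and all 4 Fn1 probes, for fibronectin, stayed below 32 on every array.

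Stroma and endothelium markers were also uneven. The summed intensity of 12 such markers, which include Cxcl12, was 685 in WT replicate 3, 74.7 and 118 in the other WT arrays and 85.9 to 144 in Klf4-deficient arrays. On each gene's probe with the highest mean, 8 of these were highest in WT replicate 3, among them Cdh5 and Pdgfra. A further 2, Col1a1 and Pdgfrb, were lowest there. That array was also the highest for 29.2% of all tested probes. In all, 7 of 12 exceeded 32 on any array, and Cdh5, Tek, Col1a1, Pdgfra and Pdgfrb did not. Their part in the niche ligand values was not tested. In a sorted population, fewer cells of a type and less RNA per cell cannot be told apart.

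Endothelial counter-receptors gave little signal. Sele, for E-selectin, read -4.6, -7.6 and 35.3 in WT against 11.3, 13.6 and 33.3 in Klf4-deficient arrays. Selp, for P-selectin, read 32.6, 28 and 118.6 in WT against 134.4, 19.5 and 30.9 in Klf4-deficient arrays. Icam1, for the ligand of β2 integrins, exceeded 32 in WT replicate 2 alone, at 68.5. Their differences were -0.028 ± 0.15, 0.051 ± 0.83 and -0.37 ± 0.35 (log2, SE, n = 3 per group), with limma adjusted p of 0.93, 0.98 and 0.71.

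Other integrin subunits had 6 tested probes higher and 11 lower, with a median of -0.11. Leaving out Klf4-deficient replicate 3 gave -0.20 and leaving out WT replicate 3 gave 0.022. Among probes above 32 on at least 3 arrays the median was 0.49. That is only the midpoint of Itgb8 ILMN_2980316, at 1.86, and Itga2b ILMN_2911123, at -0.87. Itgb8, a beta chain that partners αv, read 1.6, 7 and 12.4 in WT against 448, 65.5 and 53.8 in Klf4-deficient arrays on ILMN_2980316. It was at least 3.64-fold higher (1.86 ± 0.87 log2, SE, n = 3 per group, adjusted p = 0.71 in limma), since no WT array and each Klf4-deficient array exceeded the floor. The other 2 Itgb8 probes did not show this, with 1 value above 32 between them. Itgb4, the laminin-binding partner of α6, was above 32 in WT replicate 1 alone, at 357.9.

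Selectins, their ligand carriers and glycosyltransferases had 7 tested probes higher and 10 lower, with a median of -0.12. That median had no stable sign. Leaving out replicate 2 of either group lowered it, to -0.46 for WT and -0.39 for Klf4-deficient arrays. Leaving out WT replicate 3 turned it to 0.066 and leaving out WT replicate 1 to 0.10. Gcnt1, a branching enzyme of the glycans on P-selectin glycoprotein ligand 1, differed by 0.67 ± 0.45, 1.14 ± 1.04 and -0.99 ± 0.86 on its 3 probes (log2, SE). Glg1, a carrier of E-selectin ligands, was 2.07-fold higher on ILMN_1253692 with values floored at 32 (1.05 ± 0.60 log2, SE, adjusted p = 0.71 in limma). On that probe 2 of 3 Klf4-deficient arrays were above 32. The other Glg1 probe, ILMN_1246601, differed by -0.021 ± 0.20 (log2, SE). Spn, which encodes CD43, read 90.6, 33.7 and 34.8 in WT against 19.1, 1.8 and -1 in Klf4-deficient arrays on ILMN_2574982. This probe was singled out after its values were seen because the groups did not overlap (-0.57 ± 0.44 log2, SE, adjusted p = 0.71 in limma). Its other tested probes disagreed in sign, at -1.08 ± 0.82, 0.80 ± 0.91 and 0.066 ± 0.16 (log2, SE), and their groups overlapped.

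CD44 partners and cytoskeletal linkers had 6 tested probes higher and 8 lower, with a median of -0.033. Leaving out WT replicate 3 gave a median of -0.16, and leaving out WT replicate 2 gave 0.28. Cd74, which forms a receptor complex with CD44, read 58.7, 467 and 7.5 in WT against -2, 12.7 and -8.3 in Klf4-deficient arrays on ILMN_1221817 (-1.58 ± 1.04 log2, SE, adjusted p = 0.71 in limma). On ILMN_3089584 it read 93.6, 402.3 and 161.9 in WT against 0.4, 648.7 and -4.6 in Klf4-deficient arrays, so Klf4-deficient replicate 2 was the highest array there. Adam17, a sheddase of surface receptors, differed by 0.43 ± 0.29 and -0.74 ± 0.81 on its 2 probes.

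**Figure D4:**
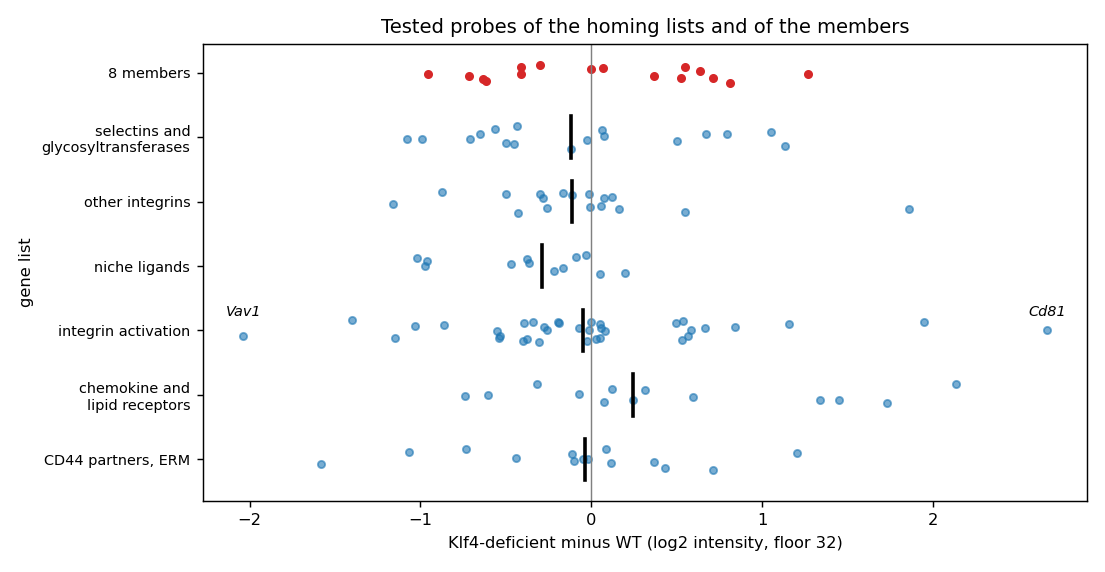
Difference, Klf4-deficient minus WT (log2 intensity, horizontal axis), of each tested probe of the 6 homing lists (blue, with the list's median as a bar) and of the 8 member genes (red). The lists straddle 0, and Cd81 at 2.67 and Vav1 at -2.04 lie at the ends of the integrin activation list.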

How the data were processed

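The authors deposited an intensity for each probe and array on a linear scale, from -31 to 37007.2. The submitters' processing notes name BeadStudio, and a service laboratory prepared and scanned the arrays, per the labels' protocols. The sources used here do not give the background and normalization methods. Values at or below 0 made up 45.3% to 45.6% of each column and column medians were 1.6 to 1.7, so the columns were used as deposited, on one scale. All 6 value columns were used.

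Values below 32 were set to 32 and log2 was taken. Each probe above 32 on at least 1 array was tested, 18270 in all. The test of Klf4-deficient against WT arrays was that of limma 3.58.1 (R 4.3.3, with the package data.table, version 1.17.8; lmFit, eBayes), with Benjamini-Hochberg adjustment over all tested probes and a threshold of 0.05. Gene means over tested probes had an exact permutation test over the 20 assignments. A fold against a group wholly below 32 is written "at least" where every array of the brighter group exceeded 32. Other fold changes near the floor can understate or overstate the difference. Arrays of the brighter group that were below 32 entered at 32.

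Of the probes, 34885 had 1 symbol in the platform annotation, 18 several and 10378 none, and symbols were updated through Entrez numbers in a RefSeq list (GRCm38.p6), where 34807 matched. Sequences and positions of probes were not analysed here.

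All 8 members were given with every probe. In each of 6 homing lists the 2 genes with the smallest unadjusted p were named, with Cxcl12, Vcam1, Fn1, Icam1, Sele, Selp, Itgal, Itgam and Klf4 by value. For member probes above 32 on at least 4 arrays, the 3 most alike named genes were taken by Pearson r. Members and lists were chosen with earlier results of these data known. The code of the fit was checked on simulated data. Changes were placed there only in brighter, less variable probes, so the check does not cover probes near the floor, as most member probes are. Alternatives were other floors, an offset, filters, quantile normalization, eBayes settings, array weights, gene means, leaving out each array, and a replicate block. Same-numbered arrays deviated together at r = 0.032 to 0.040, so the numbers were not taken to pair samples.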

Additional observations from a re-analysis of the deposited data

How the results depend on the processing

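No member probe was called under any of the alternatives run, and the lowest adjusted p over 225 member probe values was 0.43, without the filter. Without the filter 1 probe of the whole array, no member, was called, and under every other alternative 0 were. At an unadjusted p under 0.05 there were 371 probes, and 175 (trend and robust eBayes) to 809 (without WT replicate 2) under the alternatives. Of the member values, 216 kept their sign and 9 turned, all 9 when 1 array was left out. With the replicate number as a block, 0 member probes were called and 8 were higher in Klf4-deficient arrays, as without it, so the block changed no call. Above 32 on at least 3 arrays, 4 probes were higher, and on means of a gene's probes 3 of 8 genes were, since fewer features were tested. Leaving out 1 array, 0 to 1 member probes had groups that did not overlap and 6 to 10 were higher. Without WT replicate 3 the groups of 8.47% of all tested probes did not overlap. The Itgb1 mean turned to 0.088 with an offset of 32. Over the same leave-outs, Cd44 ILMN_3114585 ranged from -0.63 to 0.022, Selplg from -0.69 to 0.69, Itgb1 ILMN_2609304 from -1.09 to 0.11, Cd44 ILMN_1228214 from -0.41 to 1.16, Itga4 ILMN_1251003 from -0.20 to 1.32, ILMN_1232028 from -0.46 to 1.03 and ILMN_2635342 from -0.19 to 1.26. The Itgb1 mean ranged from -0.51 to 0.36, the Cd44 mean from -0.046 to 0.39 and the Itga4 mean from 0.22 to 1.13. Member probe values moved by over 1.5 times or turned in 7 of 16 with a floor of 16, 7 of 14 with a floor of 64, 7 of 16 with an offset of 32, 10 of 16 with array weights and 7 to 8 of 14 to 16 when 1 array was left out. Signal over background limits all of these, since 60.7% of the values tested were floored, and 3 arrays per group limit the precision.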
